A study of Mus musculus with 319 samples.

Results

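Hars encodes the cytosolic histidyl-tRNA synthetase, the enzyme that joins histidine to its transfer RNA before translation. In muscle of F2 mice its transcript level was divided at set limits into 3 ranges. The members of a low, a middle and a high class were thus chosen by the Hars value alone. All 319 arrays of the series had a Hars value and all were used: 68 were in the low class (21.3%), 160 in the middle class (50.2%) and 91 in the high class (28.5%). The animals were male and female F2 offspring of the strains C57BL/6J and C3H/HeJ, both carried on an ApoE null background, and they ate a Western diet rich in fat from week 8 to week 24 of age. RNA of each animal's muscle, labelled with Cy3, was hybridized beside a pool of equal amounts of RNA from all the animals, labelled with Cy5. Every animal therefore carried the ApoE deficiency and the diet, and no untreated or ApoE-bearing animals were compared. The labels give no genotype for any animal, so the classes are classes of a measured value, and which parental allele goes with which class is not known here.

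In an intercross, an animal inherits at each locus 2 copies of one parental allele, 1 of each, or 2 of the other, in proportions of 1:2:1. A variant that acts on its own copy of a nearby gene gives that gene graded expression over these genotypes. Neighbouring genes on the chromosome are inherited together with it, and genes farther along, or on other chromosomes, are inherited with it less closely or independently. The Hars gene lies on chromosome 18. Measured genes of that chromosome were ordered along it, and genes elsewhere were counted apart.

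All values are log2 ratios of the animal to the pool, so that 0 is the level of the pool and 1 is a doubling. The direction of the ratio was taken from the Y-linked translation factor gene Eif2s3y, whose median was 1.08 on 155 arrays and -5.62 on 164, where carriers in such a pool would stand at 1.04. The arrays gave 23382 probes with 0.654% of values missing. Between arrays, the correlation was taken over complete probes not placed on chromosome 18, which keeps probes with no known chromosome. For 50721 pairs it ranged from -0.638 to 0.893 with a median of 0.341, and 5106 pairs were under -0.3. The labels give no batch, and animal numbers were the only order of the animals. The number 227 is carried by 2 arrays. The first stands in number order in the series, and its title adds the suffix _2, whose meaning the labels do not give. The second stands later, in the place of a number that no array carries. Its label may therefore be mistyped, and whether the 2 arrays hold 1 animal is not known here. Both were kept, each counted as an animal. For 1 other array the numbers in the title and in the source name differ, and that of the source name was used. A ratio to a pool gives no absolute level, so the identity of the tissue could not be checked from it. Of 16 skeletal muscle genes looked for, 9 had a probe but only Ttn, the gene of the giant sarcomere protein titin, had a value on at least 80% of arrays.

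The Hars values that set the classes are given as a description. In the low class the lowest, median and highest Hars values were -0.62, -0.40 and -0.18. In the middle class they were -0.18, 0.04 and 0.21. In the high class they were 0.23, 0.39 and 0.63. The class medians corresponded to 0.757, 1.03 and 1.31 times the pool, so the steps between neighbouring classes were similar in size on the log2 scale. The SDs within the classes were 0.109, 0.0858 and 0.0998. Proportions of 1:2:1 would give 79.75, 159.5 and 79.75 arrays. Neither limit fell in an empty interval. At the lower limit, at -0.18, the nearest values were -0.182 and -0.178, and at the upper limit, at 0.22, they were 0.212 and 0.227. Within 0.01 log10 units of the limits lay 10 and 17 arrays. Only 1 probe measured Hars.

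**Figure D1:**
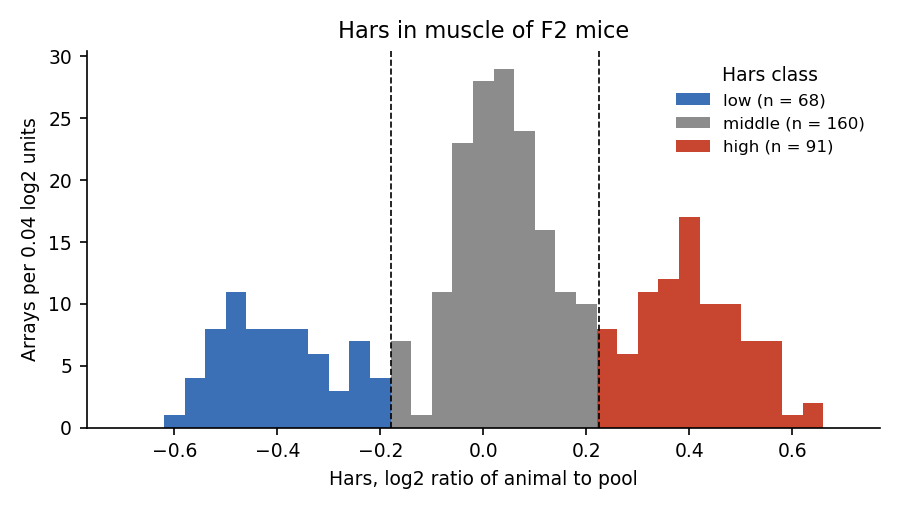
Histogram of the Hars log2 ratio of animal to pool on 319 arrays, with the class limits as dashed lines and the low, middle and high classes in blue, grey and red. The limits part the values into a central class of 160 arrays and classes of 68 and 91 arrays on either side, and arrays lie on both sides of each limit without a gap.

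For each other probe, limma fitted the log2 ratio on the class, coded 0, 1 and 2. The slope is the change in log2 ratio per class step from low to high, and a probe passed where its Benjamini-Hochberg adjusted p, taken over all 23189 probes tested, was under 0.05. Of the probes for genes on chromosome 18, 89 of 278 (32%) followed the class, 30 upward and 59 downward. Of the probes for genes on other chromosomes, 1689 of 12251 (13.8%) did, 958 upward (7.82%) and 731 downward (5.97%), and over all probes the share was 14.4%. Counted by gene, 29 of 254 genes on chromosome 18 rose and 59 fell. Class accounted for over 10% of the variance across arrays for 21 genes of chromosome 18 (7.55% of its probes), of which 4 rose and 17 fell, and for 0 probes of genes on other chromosomes, where the highest share was 9.3%.

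**Figure D2:**
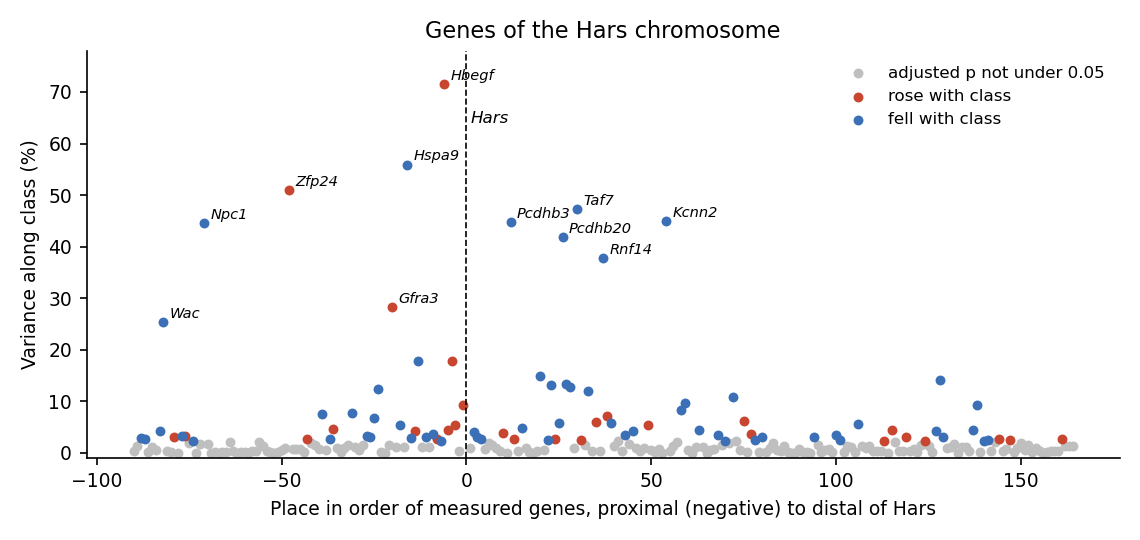
Percentage of variance along Hars class for 254 measured genes of chromosome 18, in gene order with Hars at 0 (dashed line), proximal genes to the left and distal genes to the right. Red genes rose with class, blue genes fell, and grey genes had an adjusted p of 0.05 or more. Hbegf stands highest at 71.6%, and strongly related genes lie on both sides of Hars among many neighbours with little relation.

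Hbegf was the gene that followed Hars most closely. It encodes the heparin-binding EGF-like growth factor, a membrane-anchored ligand of the EGF receptor, and it stood 6 places proximal of Hars among the measured genes. The lowest, median and highest Hbegf values were -1.91, -1.14 and 0.06 in the low class, -1.70, 0.08 and 1.10 in the middle class, and -0.12, 0.67 and 1.49 in the high class. Of the 68 low-class arrays, 66 lay below the lowest array of the high class, while the middle class overlapped both others. The mean of the high class was 3.41 times that of the low class, and the slope was 0.87 ± 0.031 log2 units per class (SE, adjusted p = 5.94e-85). This range is wider than that of Hars itself.

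Hbegf was also the only one of 23189 probes (0.00431%) whose middle class departed from the midpoint of the other classes past the threshold. Its middle-class mean lay 0.24 ± 0.041 log2 units above the midpoint (SE, adjusted p = 0.000142 by limma), nearer to the high class on that scale. The midpoint was taken on the log2 scale only. Whether the middle class departs from the midpoint of the ratios before the logarithm was not tested. At an unadjusted p under 0.05, 558 probes departed. The lowest middle-class array, at -1.70, lay inside the range of the low class.

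Of the other genes that rose with Hars, Zfp24, a zinc finger transcription factor, changed most. Its class medians were -0.65, 0.11 and 0.49 in the low, middle and high classes, and its slope was 0.53 ± 0.029 (SE, adjusted p = 1.06e-47). It stood 48 places proximal of Hars. On 38 of 68 low-class arrays it was below every high-class array. Gfra3, a receptor for the neurotrophic factor artemin, rose by 0.15 ± 0.014 per class (SE), with medians of -0.15, 0.01 and 0.12. Apbb3, an adaptor that binds the amyloid precursor protein standing 4 places proximal of Hars, had medians of -0.10, 0.08 and 0.20 and a slope of 0.14 ± 0.017 (SE, adjusted p = 6.77e-12). Its classes overlapped widely.

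Most of the strongly related genes ran against Hars. Hspa9 encodes mortalin, the mitochondrial heat shock protein of the HSP70 family, and stood 16 places proximal. Its lowest, median and highest values were -0.24, 0.36 and 0.70 in the low class, -0.64, 0.02 and 0.63 in the middle class, and -1.01, -0.42 and 0.29 in the high class. Its slope was -0.37 ± 0.018 (SE, adjusted p = 1.09e-54), and 43 of 68 low-class arrays lay above every high-class array.

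Npc1, which carries cholesterol out of lysosomes, had the steepest fall. Its lowest, median and highest values were -0.91, 0.37 and 2.07 in the low class, -1.92, -0.22 and 1.34 in the middle class, and -2.28, -1.56 and 1.35 in the high class. The mean of the high class was 0.300 times that of the low class, with a slope of -0.88 ± 0.055 (SE, adjusted p = 2.11e-39). The classes overlapped: 5 of 68 low-class arrays were above every high-class array. Npc1 stood 71 places proximal of Hars, farther along the chromosome than Hspa9 or Zfp24.

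On the distal side, Taf7, a subunit of the general transcription factor TFIID, had medians of 0.38, 0.14 and -0.30 in the low, middle and high classes and a slope of -0.35 ± 0.021 (SE, adjusted p = 1.16e-42). Kcnn2, a calcium-activated potassium channel, had medians of 0.50, 0.01 and -0.58 and a slope of -0.47 ± 0.029 (SE, adjusted p = 1.02e-39). Rnf14, a ubiquitin ligase, had medians of 0.30, 0.05 and -0.28 and fell by 0.32 per class. For these genes 40, 39 and 50 of the 68 low-class arrays lay above every high-class array. Smaller falls were seen for Wac, an adaptor in histone ubiquitination (slope -0.22 ± 0.021, SE), Sil1, a nucleotide exchange factor of the endoplasmic reticulum (-0.11 ± 0.014), and Smad4, the shared mediator of TGF-beta signals (-0.18 ± 0.025). Wac stood 82 places proximal and Smad4 128 places distal, so the genes past the threshold were spread along the chromosome.

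**Figure D3:**
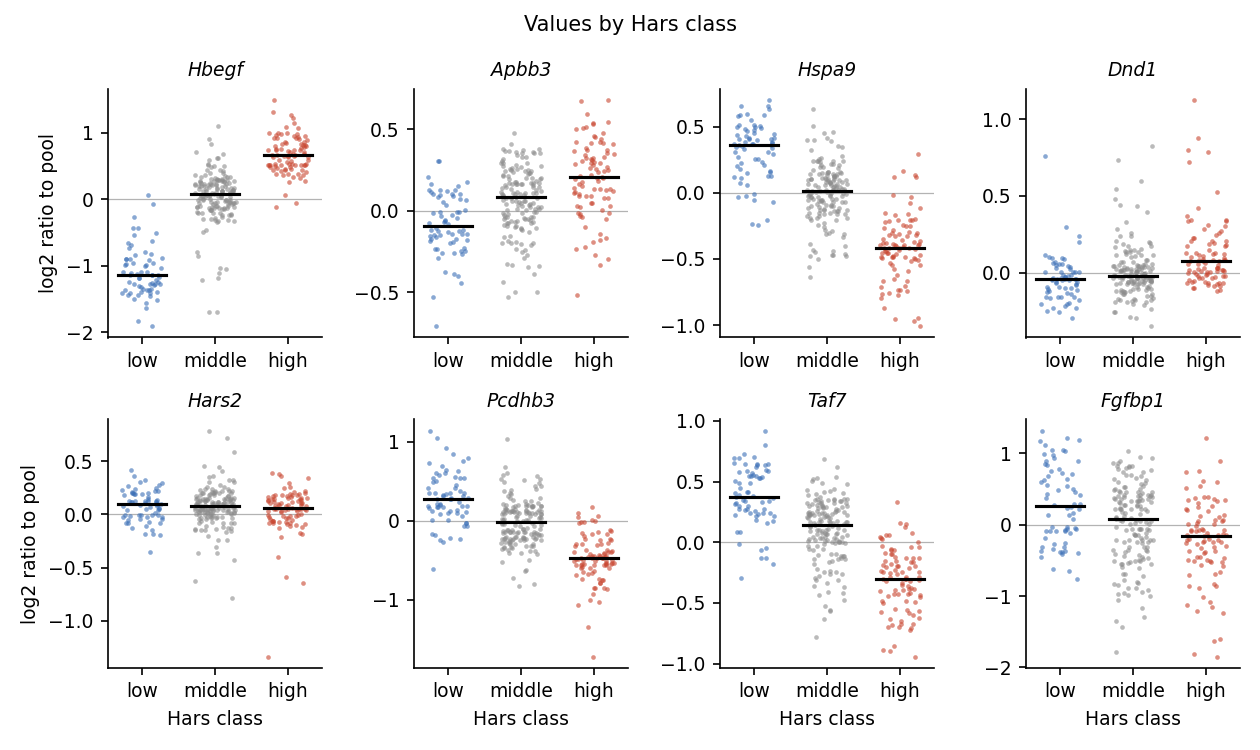
Log2 ratios of 8 genes by Hars class, 1 point per array, with 68, 160 and 91 arrays in the low, middle and high classes (fewer where values were blank) and class medians as bars. Hbegf, Apbb3 and Dnd1 rise from low to high, Hspa9, Pcdhb3 and Taf7 fall, Hars2 shows no clear step, and Fgfbp1, a gene of chromosome 5, falls with wide overlap.

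The clustered protocadherins, cell adhesion proteins best known for giving neurons distinct surfaces, lie next to Hars on its distal side, at places 2 to 31. Of 28 measured members, 4 rose and 12 fell, against 8.31% and 6.14% of all probes. On chromosome 18 as a whole, 10.8% of probes rose and 21.2% fell. The members are counted by their probe of smallest p, while these shares count every probe. The beta subcluster held the clearest changes, with 9 of 19 measured members lower. Pcdhb3 had a lowest, median and highest value of -0.61, 0.28 and 1.14 in the low class, -0.83, -0.02 and 1.04 in the middle class, and -1.72, -0.47 and 0.17 in the high class, with a slope of -0.39 ± 0.024 (SE, adjusted p = 1.53e-39). Pcdhb20 followed with -0.37 ± 0.025 (SE) and Pcdhb14 with -0.15 ± 0.020. Between them stood members with slopes close to 0, such as Pcdhb12 at 0.00054, and the median slope of all probes was 0.0034. The alpha members Pcdha1, Pcdha3 and Pcdha4 fell by 0.16 to 0.17 per class, calls that did not hold with 5 principal components as covariates, and some of their values reached or neared the limits of the deposited scale. Members of the cluster are close in sequence, and whether a probe reads only 1 of them was not tested.

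The genes nearest to Hars did not move as a block. Of the 12 measured genes on each side, 24 in all, 7 rose, 7 fell and 10 did not pass, where 8.31% of all probes rose and 6.14% fell. Each of the 24 genes is counted by its probe of smallest p, while the shares count every probe. Hars2, the mitochondrial histidyl-tRNA synthetase gene that lies head to head with Hars, was the nearest measured gene on the distal side. Its lowest, median and highest values were -0.36, 0.09 and 0.41 in the low class, -0.78, 0.08 and 0.79 in the middle class, and -1.34, 0.06 and 0.39 in the high class. Its slope was -0.025 ± 0.015 (SE, adjusted p = 0.247 by limma), so a difference between the classes was not detectable beyond the spread between animals.

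Dnd1, an RNA-binding protein of germ cells and the nearest measured gene on the proximal side, rose by 0.084 ± 0.015 per class (SE, adjusted p = 1.53e-05), with medians of -0.04, -0.02 and 0.07. Cd14, the co-receptor for bacterial lipopolysaccharide, rose by 0.14 ± 0.034 (SE, adjusted p = 0.00656), with medians of -0.36, -0.26 and -0.10. Ndufa2, a complex I subunit, lay between them with a slope of 0.017 ± 0.015 (SE, adjusted p = 0.45). In only the later-numbered animals, Dnd1 and Cd14 kept positive slopes of 0.056 and 0.14 with adjusted p of 0.71 and 0.658. Farther out on the proximal side, Ankhd1 and the zinc finger gene Cxxc5 rose by 0.041 and 0.065. Ube2d2a, a ubiquitin-conjugating enzyme, Paip2, an inhibitor of poly(A)-binding protein, and Pura, a nucleic acid binding protein, had slopes of -0.060, -0.088 and -0.068. None of these 5 calls held after quantile normalization or with the first 5 principal components as covariates, where the slopes of Ankhd1, Cxxc5, Ube2d2a, Paip2 and Pura were 0.028, 0.041, -0.010, -0.010 and -0.024. Matr3, a protein of the nuclear matrix, and Slc23a1, a vitamin C transporter, did not pass, with slopes of -0.024 and 0.040.

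Different probes of 1 gene did not always agree. The second Wac probe had a slope of 0.030 (adjusted p = 0.552), against -0.22 for the first. The second Dnd1 probe had a slope of 0.018 (adjusted p = 0.193) and the second Ankhd1 probe -0.011 (adjusted p = 0.489). These named genes therefore rest on 1 of 2 probes, and what sets the probes apart was not tested.

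Along the chromosome, genes that followed the class were most frequent near Hars, and the counts were uneven beyond. Among the 20 measured genes nearest on the proximal side 15 followed the class, and among the next 20 there were 8. The groups of 20 beyond these held 2 and 5, and the last 10 proximal genes held 4. On the distal side the groups of 20 held 8, 14, 6, 8, 2, 5, 7 and 3, moving outward. Of the probes for genes on other chromosomes 13.8% followed the class, so groups with 2 or 3 of 20 stood near or under that share. The groups count each gene by its probe of smallest p, while that share counts every probe. The median share of variance along the class was 3.94% in the nearest proximal group and 5.73% in the second distal group, by the probe of smallest p of each gene. Over all probes the median was 1.04% for chromosome 18 and 0.582% for other chromosomes. Zfp24, Kcnn2, Npc1 and Wac stood at 51%, 44.9%, 44.5% and 25.4% in groups whose medians were 0.605%, 1.14%, 0.293% and 1.21%.

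Within a class the animals still differ in Hars. The 5 genes of smallest p for the class trend were set against Hars inside each class, and since they were chosen for their relation to Hars and read on the same arrays, these correlations are a description with no test. Hbegf had r of 0.202, 0.449 and 0.521 in the low, middle and high classes (n = 68, 160 and 91), and rho of 0.148, 0.379 and 0.51. Taf7 had r of -0.285, -0.323 and -0.0623, and Hspa9 had -0.112, -0.252 and -0.323. Zfp24 had r of 0.145, 0.156 and 0.295, and Kcnn2 0.137, -0.146 and -0.209.

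Outside chromosome 18, the gene most strongly related to the class was Fgfbp1, on chromosome 5, which encodes a carrier that releases fibroblast growth factors from the matrix. Its lowest, median and highest values were -0.76, 0.27 and 1.32 in the low class, -1.78, 0.08 and 1.04 in the middle class, and -1.85, -0.16 and 1.21 in the high class. The high-class mean lay 0.52 log2 units below the low-class mean, and the slope was -0.26 ± 0.045 (SE, adjusted p = 1.32e-05 by limma). The classes overlapped over most of their range. Among only the later-numbered animals the slope was -0.25 with an adjusted p of 0.0956, and with each of the other settings tried it passed.

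The next 9 genes followed with larger p values. Psme1, a proteasome activator subunit, fell by 0.071 ± 0.015 per class (SE, adjusted p = 0.00159), and its second probe fell by 0.049. Lgi3, a secreted leucine-rich protein, rose by 0.040 ± 0.0086 (SE, adjusted p = 0.00159). Grin2c, an NMDA receptor subunit, fell by 0.29 ± 0.063 and Lin9, a cell cycle regulator, by 0.15 ± 0.034 (SE). Sema6d, a semaphorin, rose by 0.098 on one probe and fell by 0.087 on another. Bpifb3, Cxxc4, Olfr171 and Slc12a3 rose by 0.066, 0.054, 0.062 and 0.082, while the second Olfr171 probe had a slope of 0.025 (adjusted p = 0.191). Of these 9, none passed among only the later-numbered animals. With the first 5 principal components of the arrays as covariates Lgi3 and Grin2c passed and the other 7 did not; Lin9 then had a slope of -0.037 and Slc12a3 of 0.029.

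The count of genes on other chromosomes changed with the setting. The first 5 principal components were taken over probes with a value on every array that were not placed on chromosome 18. Probes with no known chromosome were kept among them. These components held 52.1% of the variance of those probes. The second component had medians of -0.32, -0.24 and -0.04 in the low, middle and high classes and reached 1.46, 5.04 and 6.28. With the 5 components as covariates, a choice made after seeing the data, 15 of 12251 probes (0.122%) on other chromosomes passed, 50 of 278 (18%) on chromosome 18 and 0.469% of those not placed. Only 5 of those 15 probes and 38 of those 50 had also passed without covariates. Without the 64 arrays richest in lymphocyte transcripts, 41 probes on other chromosomes and 42 on chromosome 18 passed, and among only the later-numbered animals 0 and 23. Neither component nor tissue content was tested as the source of the count. Those lymphocyte-rich arrays made up 22.1%, 18.1% and 22% of the low, middle and high classes, the share of arrays in the upper Eif2s3y group was 52.9%, 45.6% and 50.5%, and the median animal number was 172, 190 and 222.

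**Figure D4:**
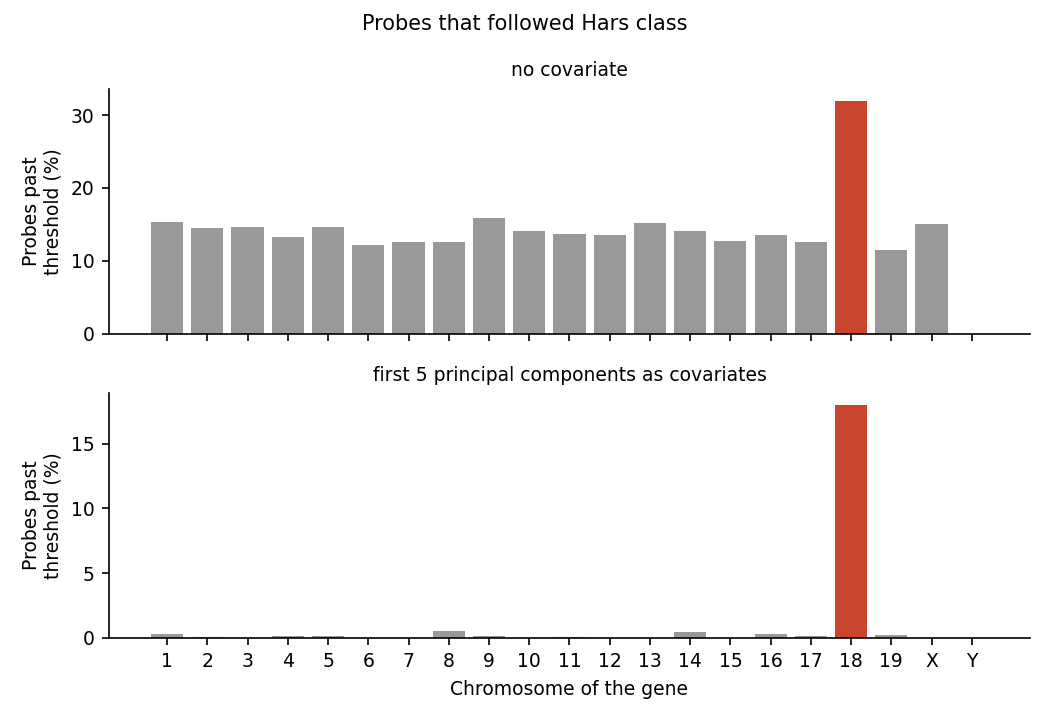
Percentage of tested probes past an adjusted p of 0.05 for the trend on Hars class, by chromosome of the gene, with no covariate (top) and with the first 5 principal components as covariates (bottom). Chromosome 18, in red, stands at 32% and 18%; the other autosomes and X lie between 11.5% and 15.9% in the top panel and at or under 0.498% in the bottom panel.

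Tests of the class trend against animal number found no probe whose slope differed between earlier and later animals by limma: 0 of 23189 probes passed, 1053 had an unadjusted p under 0.05, and the smallest adjusted p was 0.831. For Hbegf the slope was 0.91 in the earlier-numbered and 0.82 in the later-numbered animals, and for Npc1 it was -0.84 and -0.91.

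Genes around the function of Hars were counted against the 14.4% of all probes that passed. Of 20 other cytosolic aminoacyl-tRNA synthetase genes looked for, 6 were measured, by 8 probes, of which 1 rose and 1 fell (25%). Mars1, the methionyl-tRNA synthetase, rose by 0.033 ± 0.0098 per class (SE, adjusted p = 0.022), and Eprs, the glutamyl-prolyl-tRNA synthetase, fell by 0.087 ± 0.029 (SE, adjusted p = 0.032). The median slope of the list was -0.00066. Of 6 probes for 5 mitochondrial synthetases, including Hars2, 2 rose (33.3%), both for the leucyl-tRNA synthetase gene Lars2, with slopes of 0.084 ± 0.026 and 0.080 ± 0.028 (SE). Of 2 probes for the synthetase complex scaffold, 0 passed, and Aimp1 had a slope of 0.033 (adjusted p = 0.0585).

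Of 13 probes for enzymes and transporters that handle histidine, 0 passed by limma, with slopes from -0.068 to 0.10. The closest was the amino acid transporter Slc38a3 at 0.10 ± 0.038 (SE, adjusted p = 0.0559). Of 15 probes for the amino acid response, through which cells react to uncharged transfer RNA, 1 fell (6.67%): Eif2ak4, which encodes the sensor kinase GCN2, at -0.056 ± 0.017 per class (SE, adjusted p = 0.0264). The median slope of that list was -0.00064. Of 23 probes for elongation and initiation factors, 4 fell (17.4%) and 0 rose, with Eif3c at -0.084, Eif4g2 at -0.094, Eef1d at -0.064 and Eif4e at -0.080, and a median slope of -0.038. The second Eif4e probe had a slope of 0.0095 (adjusted p = 0.817). With the 5 components as covariates, no probe of these lists passed, and the adjusted p of those named ranged from 0.736 to 0.998.

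**Figure D5:**
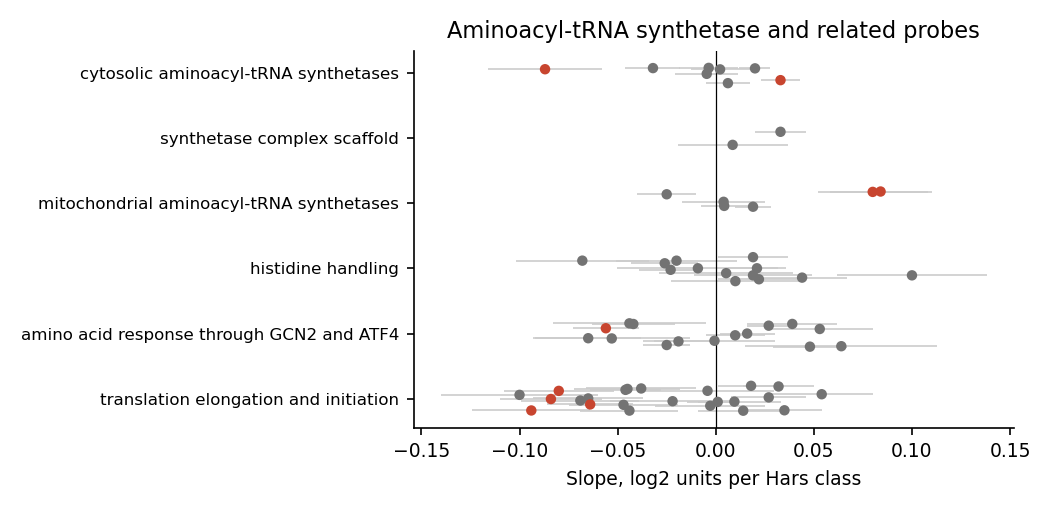
Slope on Hars class for each probe of 6 gene lists around the function of Hars, in log2 units per class, with SEs as bars. Red points had an adjusted p under 0.05 and grey points did not. The slopes lie on both sides of 0 in most lists and within 0.10 of it.

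Markers of other cell types that muscle samples can hold were followed in the same way, beside the same 14.4% of all probes. Of 17 lymphocyte probes 1 rose (5.88%), for Ighm at 0.047, whose other 4 probes had slopes from -0.0033 to 0.028. Likewise, of 15 macrophage probes 1 rose (6.67%), for Cd14, which is itself a neighbour of Hars. Of 9 neutrophil, 6 erythroid, 5 keratinocyte, 5 MHC class II and 12 interferon response probes, 0 passed by limma. The median slopes of the neutrophil and slow fibre lists were both 0.11, against 0.0034 for all probes. The steeper slopes in these lists had wide SEs, such as Ngp at 0.22 ± 0.15 and Myh7 at 0.21 ± 0.11 (SE), and neither passed. Of 14 slow fibre probes 2 passed (14.3%): Casq2 rose by 0.058, and 1 of 5 Tpm3 probes fell by 0.073, while the other Tpm3 probes had slopes of 0.11, -0.038, 0.0020 and 0.18. The steepest slope of the marker lists, 0.27 for the neutrophil gene S100a9, had an adjusted p of 0.14. Of 11 adipocyte probes 2 rose (18.2%), for Lep at 0.047 and for 1 of 3 Acaca probes at 0.076, the others being at 0.059 and 0.0056. The slopes of the adipocyte list ran from -0.084 to 0.076, with a median of -0.024, against the direction of those calls. Of 11 extracellular matrix probes 1 fell (9.09%), for Col1a2 at -0.076, whose second probe had a slope of 0.013. The slopes of the matrix list ran from -0.076 to 0.099, with a median of 0.013. Of 8 endothelial probes 1 rose (12.5%), for Eng at 0.028, in a list with slopes from -0.041 to 0.085 and a median of -0.0073. With the 5 components as covariates Cd14 was the one marker that passed. In bulk muscle a change in the number of cells of a type and a change in RNA per cell cannot be told apart.

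A further 1572 of 10660 probes (14.7%) that could not be placed on a chromosome also passed, 8.81% upward and 5.94% downward. Class held over 10% of the variance for 19 of these probes (0.178%). One without a gene name had medians of -0.26, 0.08 and 0.37 in the low, middle and high classes, with a slope of 0.31 ± 0.013 (SE, adjusted p = 3.77e-65) and 62.3% of variance along the class. Another had medians of 0.20, 0.01 and -0.20 and a slope of -0.19 ± 0.010 (SE, adjusted p = 5.58e-50). Their chromosomes are not known here.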

How the data were processed

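RNA of F2 mouse muscle was compared with a common pool on 319 2-colour arrays. The number 227 is on 2 of them, so the labels give 318 distinct numbers, and whether 1 of these labels is mistyped is not known here. The authors deposited 1 log10 ratio per probe and array; the base and direction are inferred from the values, which end at exactly -2 and 2, and from Eif2s3y. Background correction and normalization are not given in the sources used here. Values were converted to log2 and not rescaled. The number of arrays limits the precision, and p-values measure the spread between animals of 1 labelled group.

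Gene names came from the platform table. Of 13639 probes with 1 symbol, 12647 were matched by gene ID and 4 by accession to the RefSeq table of GRCm38.p6, used for names, chromosomes and gene order only; 988 were not matched. The test took probes present on 80% of arrays or more, other than the Hars probe. limma 3.58.1 in R 4.3.3 fitted each probe on the class (0, 1, 2), with a middle-class term or an interaction with animal number (up to 192, or above) in separate fits, and Benjamini-Hochberg adjustment at 0.05. The fits were checked on the real arrays with the class shuffled and known changes added to some probes. A linear fit recovers an added change by construction, so that recovery checks the code only. Genes were named by rule: the 12 measured genes on each side of Hars, the 15 of chromosome 18 and 10 elsewhere of smallest p, up to 5 of smallest p for the middle class, and the list members of smallest p. The Pcdhb12 probe and the unplaced probes were chosen after their values were seen. Members and lists were chosen with earlier results of these data known. Sequences of the chromosome 18 genes are not printed.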

Additional observations from a re-analysis of the deposited data

How the results depend on the processing

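The counts for the class trend were recomputed under 17 other settings. So were the slopes of the genes named as neighbours of Hars or by smallest p, where their probes were tested. The middle-class and animal-number results were run under fewer of these settings. Genes named only as list members were recomputed with the 5 components alone. Of all probes 3350 passed; 262 did after quantile normalization, 115 with the first 5 principal components as covariates (chosen after seeing the data), 1738 in animals numbered up to 192, 42 in those above, 9301 with the Hars log2 ratio in place of the class, 721 for the high against the low class, and 157 without the 64 lymphocyte-rich arrays. In the same order the counts on other chromosomes were 87, 15, 859, 0, 4802, 319 and 41, against 1689. On chromosome 18 they were 47, 50, 67, 23, 142, 54 and 42, against 89. The cause of these differences was not tested. Every other setting left these counts within 1.5 times. With array medians subtracted, 48.7% of the calls on other chromosomes were upward, against 56.7%. The counts of 1 probe for the middle class and 0 for animal number were the same under every setting that was run for them.

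On chromosome 18, 20 probes passed in all 18 fits (Apbb3, Commd10, Gfra3, Hbegf, Hdac3, Hspa9, Kcnn2, Npc1, Pcdhb14, Pcdhb17, Pcdhb20, Pcdhb21, Pcdhb22, Pcdhb3, Rnf14, Sil1, Smad4, Taf7, Wac and Zfp24, where they were tested), and elsewhere 0 did. Among the genes recomputed under all these settings, slopes that changed sign were all past no threshold. Ndufa2 was at -0.0026 and Hars2 at 0.0068 with 5 components, and Pcdha12 at 0.011 in animals above number 192. Pcdhb2 was at -0.0021 with medians subtracted, -0.0032 after quantile normalization and -0.016 with 5 components. It was at -0.024 above number 192, -0.00061 for high against low, and -0.012 without the lymphocyte-rich arrays.

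The classes rest on 1 probe and on limits with arrays close on both sides. Without both arrays numbered 227, 84 probes of chromosome 18 and 1536 elsewhere passed. Without arrays near the limits, 94 probes of chromosome 18 and 2038 elsewhere passed. No paired analysis was possible because all arrays form 1 labelled group, so no replicate number links different groups; animal number 227 is shared by 2 arrays within it.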
